A study of Saccharomyces cerevisiae with 18 samples.

Results

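The comparison described here sets yeast that lack *NCS2*, *ELP6* and *HEL2* against yeast that lack *NCS2* and *ELP6* but keep *HEL2*, and asks, group by group, which genes carried more or fewer translating ribosomes once Hel2 was lost in cells without wobble-uridine modifications. It was made from the monosome footprints of 2 *ncs2*∆*elp6*∆*hel2*∆ libraries and 3 *ncs2*∆*elp6*∆ libraries, which are 5 of the 18 libraries of the study and were chosen by strain and fraction alone. All strains were BY4741 derivatives of mating type a with *his3*∆1 *leu2*∆0 *ura3*∆0, were grown in rich medium (YPD) and were lysed, digested with RNase I and fractionated on sucrose gradients. The *ncs2*∆*elp6*∆*hel2*∆ strain carried *ncs2*∆::HIS3MX, *elp6*∆::URA3 and *hel2*∆::LEU2, and the *ncs2*∆*elp6*∆ strain carried *ncs2*∆::HIS3MX and *elp6*∆::URA3 alone, so that the loss of HEL2 and the gain of the LEU2 marker always came together and cannot be told apart. The study also held wild-type and *hel2*∆ strains and disome libraries (footprints of a pair of stacked ribosomes), which enter below where a difference between backgrounds or a separate readout was needed.

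Ncs2 acts in the thiolation of the wobble uridine of the tRNAs that read certain lysine, glutamine and glutamate codons, and Elp6 is a subunit of Elongator, which starts the synthesis of a side chain on the same base. Without both modifications ribosomes slow at these codons, and yeast proteins are known to aggregate. Hel2 is the ubiquitin ligase that recognizes collided ribosomes, marks proteins of the small subunit and so opens ribosome-associated quality control (RQC), in which the ribosome is split and the unfinished chain is degraded. Heat-shock factor Hsf1 drives the genes of cytosolic chaperones when misfolded proteins accumulate, and Leu3 drives genes of leucine synthesis when its co-activator, an intermediate of that pathway, is present.

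The footprint counts matched the genotypes for HEL2 and LEU2. HEL2 had 1 and 3 counts in the *ncs2*∆*elp6*∆*hel2*∆ libraries, against 1990, 1319 and 973 counts in the *ncs2*∆*elp6*∆ libraries. LEU2 had 59 and 102 counts in *ncs2*∆*elp6*∆*hel2*∆, against 1 count in each *ncs2*∆*elp6*∆ library. Pooled counts were set against library totals scaled by the trimmed mean of M values (TMM). On that scale HEL2 was 140-fold lower in the triple deletion, with an exact 95% counting interval of 54.6 to 514. LEU2 was 411-fold higher, with an interval of 138 to 2012. NCS2 had 5 and 0 counts in *ncs2*∆*elp6*∆*hel2*∆ and 26, 13 and 11 in *ncs2*∆*elp6*∆, so that little of the gene was read in either strain. ELP6 had 0 and 3 counts in *ncs2*∆*elp6*∆*hel2*∆ and 2, 1 and 0 counts in *ncs2*∆*elp6*∆. URA3 had 0 counts in both *ncs2*∆*elp6*∆*hel2*∆ libraries and 2, 2 and 1 in *ncs2*∆*elp6*∆ libraries, although the labels give a URA3 disruption in each strain. The 9 genes expressed in mating type a summed to 1021 and 955 CPM (counts per 1000000 footprints, on the same TMM-scaled totals) in *ncs2*∆*elp6*∆*hel2*∆ and to between 769 and 837 CPM in *ncs2*∆*elp6*∆, whereas the 4 genes of mating type alpha summed to at most 4.08 CPM in any library. The *ncs2*∆*elp6*∆*hel2*∆ libraries were shallower, with 2381991 and 4352295 counted footprints, than the *ncs2*∆*elp6*∆ libraries, with 24884873, 17782300 and 13791038. Depth therefore followed the HEL2 genotype and cannot be told apart from it, and results after thinning every library to the smallest total are given under the alternatives.

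Between the 2 strains many genes differed by small amounts and a few by large ones. Inducible chaperones such as HSP26, BTN2 and SSA4 were among the most increased genes, and leucine synthesis genes such as OAC1 and LEU1 were among the most decreased. Of 5318 genes tested with the quasi-likelihood test of edgeR, 1290 (24.3%) passed an adjusted p of 0.05. Of these, 639 (12%) were higher in *ncs2*∆*elp6*∆*hel2*∆ and 651 (12.2%) were lower, and the median log2 fold change over all tested genes was 0.0043. In all, 52 of the 1290 called genes were higher by more than 1 on the log2 scale and 31 were lower by more than 1. Leaving out either *ncs2*∆*elp6*∆*hel2*∆ library left that strain with 1, and fewer genes were then called. Fits of this kind, also used below, lose replication, so their lower counts do not by themselves show dependence on a library or its depth. The split between directions depended on the scaling, since with plain library totals the median of all genes shifted up by 0.14 and 1232 genes were called higher and 345 lower. A footprint count combines the amount of an mRNA with the ribosomes on each mRNA, and no mRNA measurements were used here, so the changes below are changes in footprints.

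The shares of called genes in functional lists with at least 8 tested members are set out in the plot of called members by group. Against the 12% of all tested genes that were higher and the 12.2% that were lower, the lists for arginine synthesis, general stress, iron uptake and the regulators around Gcn4 held larger shares of higher genes, and those for leucine synthesis, glycolysis, the TCA cycle, nitrogen assimilation, phosphate and Hsp90 held larger shares of lower genes. The Hsp70 and Hsp110 list exceeded both, with 41.7% higher and 50% lower. Level bears on these shares, since 29.9% of the 1064 genes with the highest footprint counts were lower. The lists were not compared with genes of like level.

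**Figure D1:**
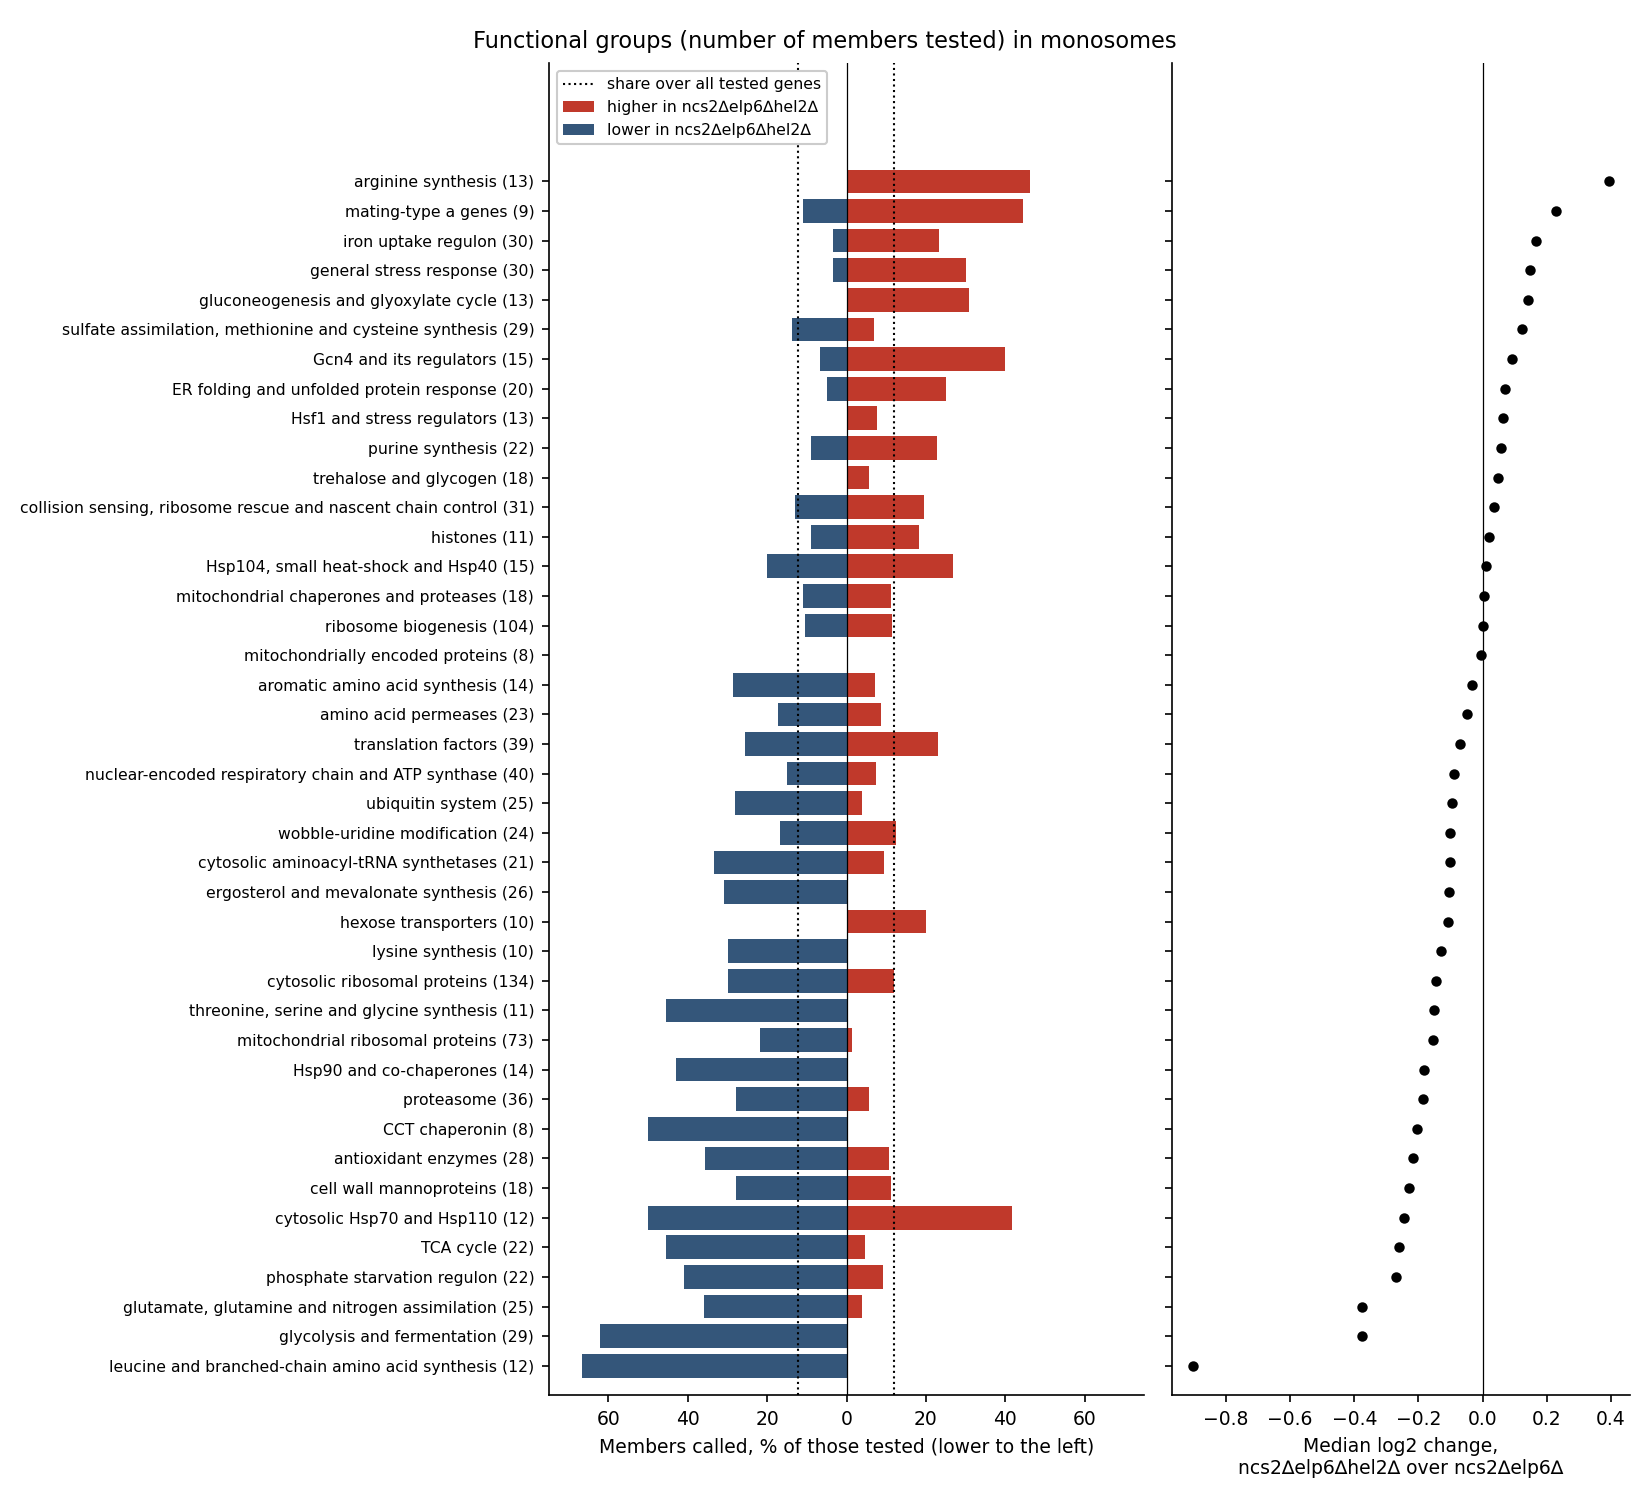
Share of tested members called higher (right of 0) or lower (left of 0), in percent, for each functional list with at least 8 members tested. Monosome libraries of *ncs2*∆*elp6*∆*hel2*∆ (n = 2) were set against those of *ncs2*∆*elp6*∆ (n = 3). Dotted lines mark the shares over all 5318 tested genes, 12% higher and 12.2% lower. Leucine synthesis and glycolysis reach furthest to the left without any member on the right, and arginine synthesis lies on the right only. The right panel gives the median log2 fold change of each list.

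The cytosolic chaperones changed in both directions. The inducible HSP26, BTN2, SSA3, SSA4, SSE2 and HSP42 were higher in *ncs2*∆*elp6*∆*hel2*∆, whereas the constitutive Hsp70 genes SSA1, SSA2, SSB1 and SSB2, the Hsp110 gene SSE1 and 6 of 14 genes in the Hsp90 list were lower. HSP26, a small heat-shock protein that binds unfolding proteins, had 597 and 630.2 CPM in the *ncs2*∆*elp6*∆*hel2*∆ libraries, against 87.7, 104 and 68.3 CPM in the *ncs2*∆*elp6*∆ libraries, a log2 fold change of 2.82 ± 0.13 (SE; edgeR adjusted p = 7.08e-09). BTN2, which gathers misfolded proteins into deposits, had 278 and 269 CPM in *ncs2*∆*elp6*∆*hel2*∆ and 51.9, 57.6 and 46.3 CPM in *ncs2*∆*elp6*∆ (log2 fold change 2.39 ± 0.093, edgeR adjusted p = 3.27e-11). The plot of chaperone levels by library shows both genes in every library. SSA4, an Hsp70 induced by heat, was at 700.3 and 753 CPM in *ncs2*∆*elp6*∆*hel2*∆ and at 198, 212 and 193 CPM in *ncs2*∆*elp6*∆ (log2 fold change 1.86 ± 0.075). SSA3, its companion among the inducible Hsp70s, was at 145 and 172 CPM in the triple deletion, against 42.3, 38.9 and 36.3 CPM in *ncs2*∆*elp6*∆ (2.02 ± 0.10 on the log2 scale). The Hsp110 pair went opposite ways. SSE2, the inducible member, had 92.0 and 108 CPM in *ncs2*∆*elp6*∆*hel2*∆ and 30.8, 34.7 and 27.0 CPM in *ncs2*∆*elp6*∆, and its log2 fold change was 1.71 ± 0.11. SSE1, the major Hsp110 and a nucleotide exchange factor of Hsp70, had 2251 and 2502 CPM in *ncs2*∆*elp6*∆*hel2*∆ and 3481, 3378 and 3533 CPM in *ncs2*∆*elp6*∆, lower by 0.54 ± 0.076 on the log2 scale. In absolute terms the constitutive genes still carried most of the footprints, so that the summed Hsp70 and Hsp110 list took 1.87% and 1.88% of all counts in the triple deletion and between 2.0% and 2.17% in *ncs2*∆*elp6*∆.

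**Figure D2:**
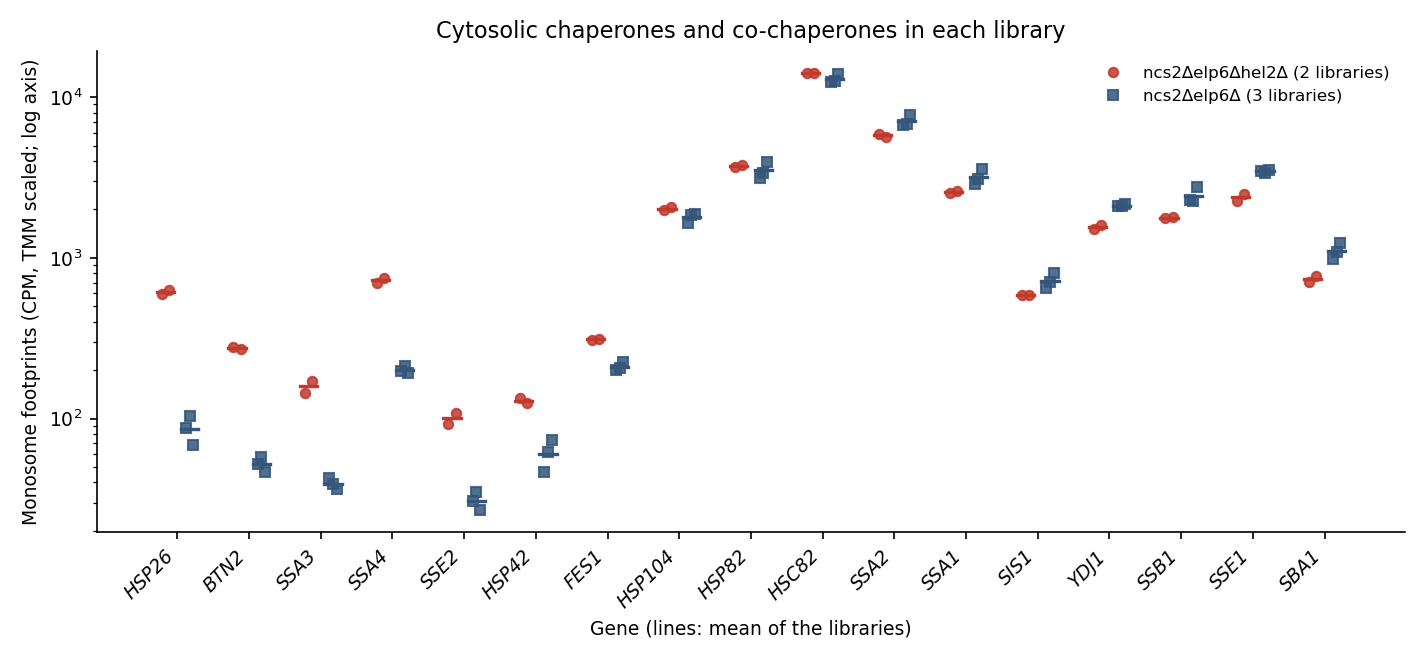
CPM (log axis) of the cytosolic chaperone genes in each monosome library, with the 2 *ncs2*∆*elp6*∆*hel2*∆ libraries drawn left of the 3 *ncs2*∆*elp6*∆ libraries and a bar at each strain's mean. The points of HSP26, BTN2, SSA3, SSA4 and SSE2 separate upward in the triple deletion, and those of the constitutive Hsp70 genes sit slightly lower.

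Of the 12 members tested in the Hsp70 and Hsp110 list, 5 rose and 6 fell, with a median log2 fold change of −0.25. Beside SSA3, SSA4 and SSE2, those that rose were FES1 (0.57), an exchange factor of Hsp70, and SNL1 (0.51), a membrane protein that binds Hsp70. The members that fell, beside SSE1, were the ribosome-bound Hsp70s SSB1 (−0.45) and SSB2 (−0.36), their J-domain partner ZUO1 (−0.38), and SSA1 (−0.30) and SSA2 (−0.29). SSA1 and SSA2, SSB1 and SSB2 are near-identical pairs, and reads shared between the copies were dropped in mapping, so their separate counts are uncertain. With plain library totals 4 of these 6 still passed as lower, and without *ncs2*∆*elp6*∆*hel2*∆ replicate 1 the number was 2.

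Among 14 members tested of Hsp90 and its co-chaperones, 6 passed, each lower (median −0.18). These were SBA1, the p23 homologue, which had 711 and 766 CPM in *ncs2*∆*elp6*∆*hel2*∆ and 977, 1093 and 1229 CPM in *ncs2*∆*elp6*∆ (log2 fold change −0.57), the R2TP subunits TAH1 (−0.56) and PIH1 (−0.54), and CNS1 (−0.42), STI1 (−0.26) and AHA1 (−0.26), all of which bind Hsp90. The AHA1 call was kept in 6 of 14 alternatives. The list as a whole nevertheless took a larger share of all counts in *ncs2*∆*elp6*∆*hel2*∆, 2.53% and 2.54%, than in *ncs2*∆*elp6*∆, 2.2% to 2.4%. The Hsp90 genes themselves did not pass. HSP82, the inducible copy, was at 3669 and 3773 CPM in *ncs2*∆*elp6*∆*hel2*∆ and 3158, 3392 and 3954 CPM in *ncs2*∆*elp6*∆ (log2 fold change 0.088, edgeR adjusted p = 0.507). HSC82, the constitutive copy, was at 14136 and 14210.0 CPM in the triple deletion, against 12412, 12568 and 14020.1 CPM in *ncs2*∆*elp6*∆ (0.12, edgeR adjusted p = 0.257). The strains overlapped for HSP82 and not for HSC82. Both genes passed as higher with plain library totals and without *ncs2*∆*elp6*∆ replicate 3, and their near-identical sequences make the separate counts uncertain. Without *ncs2*∆*elp6*∆*hel2*∆ replicate 1, 3 of the 14 were lower.

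In the list of Hsp104, small heat-shock proteins and Hsp40s, 4 of 15 members rose and 3 fell. The list took 0.61% and 0.62% of all counts in *ncs2*∆*elp6*∆*hel2*∆ and 0.51% to 0.54% in *ncs2*∆*elp6*∆. HSP26, BTN2, SSA3, SSA4, SSE2 and HSP42 passed in all 14 alternatives tried. HSP42, the other small heat-shock protein of the cytosol, had 134 and 124 CPM in *ncs2*∆*elp6*∆*hel2*∆ and 46.3, 61.5 and 73.0 CPM in *ncs2*∆*elp6*∆ (log2 fold change 1.11 ± 0.15), and the remaining higher gene beside HSP26 and BTN2 was SWA2 (0.32), a J-protein of clathrin uncoating. HSP104, the disaggregase, did not pass, with 1979.9 and 2069 CPM in *ncs2*∆*elp6*∆*hel2*∆, against 1653, 1857 and 1870.3 CPM in *ncs2*∆*elp6*∆ (0.18 ± 0.077, edgeR adjusted p = 0.113). The J-proteins YDJ1 (−0.44), XDJ1 (−0.39) and SIS1 (−0.29) fell, and the number of lower members was 1 when either triple-deletion library was left out. Of the 8 subunits of the CCT chaperonin, which folds actin and tubulin, 4 passed, each lower (median −0.20), and 1 without *ncs2*∆*elp6*∆*hel2*∆ replicate 1. The regulators of these genes differed little. HSF1 had a log2 fold change of 0.063 (edgeR adjusted p = 0.674), and among 13 stress regulators tested 1 passed, MSN4 (0.29), an activator of general stress genes, a call kept in 7 of 14 alternatives. In the endoplasmic reticulum 5 of 20 folding genes rose and 1 fell, a count of 3 higher without *ncs2*∆*elp6*∆*hel2*∆ replicate 1.

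Stress genes outside the chaperone lists moved selectively. Of 30 genes of the general stress response, 9 rose and 1 fell, with a median of 0.15. HSP30, a membrane protein that restrains the plasma membrane proton pump, had 65.2 and 53.1 CPM in *ncs2*∆*elp6*∆*hel2*∆ and 9.80, 13.7 and 7.31 CPM in *ncs2*∆*elp6*∆ (log2 fold change 2.49 ± 0.20, edgeR adjusted p = 1.97e-06). The cell wall gene SPI1 (1.86), DDR2 (1.22), MSC1 (0.90) and the catalase gene CTT1 (0.74) were also higher, whereas HSP12 (0.21, edgeR adjusted p = 0.295) and the trehalose synthase gene TPS1 (−0.17, adjusted p = 0.256), classic members of the same response, did not pass. YJL144W, a small hydrophilic protein linked to tolerance of drying, was among the largest changes, at 50.3 and 56.6 CPM in the triple deletion, against 9.18, 12.6 and 11.97 CPM in *ncs2*∆*elp6*∆ (2.28 ± 0.14). Complete separation between the strains was a condition for listing a gene among the 12 largest changes, and 1289 of the 1290 called genes had it. It therefore adds nothing for HSP30 and YJL144W, nor for HSP26, BTN2, OAC1 and LEU1.

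Among antioxidant genes 10 of 28 fell and 3 rose (median −0.22), but the list kept no direction with plain library totals or with the trend with gene length (described below) removed, since each gave 5 higher and 5 lower. SRX1, the sulfiredoxin that restores over-oxidized peroxiredoxins, had 46.8 and 39.3 CPM in *ncs2*∆*elp6*∆*hel2*∆ and 7.17, 9.62 and 12.2 CPM in *ncs2*∆*elp6*∆ (log2 fold change 2.18 ± 0.18), and the stress-induced peroxiredoxin TSA2 rose too (1.23). The abundant peroxiredoxins AHP1 (−0.62) and TSA1 (−0.54), the mitochondrial PRX1 (−0.59) and the superoxide dismutase SOD1 (−0.59) fell. Lower members numbered 5 without *ncs2*∆*elp6*∆*hel2*∆ replicate 1 and 6 without replicate 2. Outside the deleted and marker genes, others among the 12 largest increases at a mean of 20 CPM or more were the polyamine exporter gene TPO2 (1.37), RTC3 (1.28), TMA10 (1.26) and VMA7 (1.23), a subunit of the vacuolar proton pump.

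Among called genes with a mean of at least 20 CPM, the largest decreases other than that of the deleted HEL2 were those of OAC1 and LEU1, the mitochondrial exporter and the isomerase of leucine synthesis. Of 12 members tested in the list for leucine and the branched-chain amino acids, 8 passed, each lower, with a median log2 fold change of −0.90, and the count did not move by more than 1.5 times when any single library was left out. OAC1, the mitochondrial carrier that exports the leucine precursor, had 11.8 and 10.05 CPM in *ncs2*∆*elp6*∆*hel2*∆, against 98.6, 104 and 80.6 CPM in *ncs2*∆*elp6*∆ (log2 fold change −3.14 ± 0.17, edgeR adjusted p = 2.08e-09). LEU1, isopropylmalate isomerase, had 234 and 227 CPM in *ncs2*∆*elp6*∆*hel2*∆ and 1705, 1782 and 1655 CPM in *ncs2*∆*elp6*∆ (−2.89 ± 0.084, edgeR adjusted p = 1.10e-12). The plot of leucine synthesis genes shows both in every library.

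Steps upstream and downstream of LEU1 fell by less. BAT1, the mitochondrial aminotransferase of branched-chain amino acids, was at 163 and 148 CPM in *ncs2*∆*elp6*∆*hel2*∆, against 633, 642 and 629 CPM in *ncs2*∆*elp6*∆ (log2 fold change −2.03 ± 0.083). The enzymes shared by isoleucine, valine and leucine fell in the order ILV3 (−1.09), ILV5 (−0.99) and ILV2 (−0.84), and their SEs were 0.077, 0.076 and 0.075, and whether neighbours in this order differ was not tested. LEU4, the main isopropylmalate synthase and the first committed step, had 402 and 353 CPM in *ncs2*∆*elp6*∆*hel2*∆ and 749, 745 and 707 CPM in *ncs2*∆*elp6*∆ (−0.96 ± 0.081), and its paralogue LEU9 fell less (−0.28), a call kept in 6 of 14 alternatives. ILV1 (−0.044), ILV6 (−0.057), the cytosolic aminotransferase BAT2 (−0.019) and LEU3 (0.24), the regulator of the pathway, did not pass. LEU2 itself encodes the enzyme after LEU1 and was present in the *hel2*∆::LEU2 strain alone, so these changes went with both the marker and the loss of Hel2. Genes outside the list stood beside them, namely GDH1, the glutamate dehydrogenase of nitrogen assimilation, with 151 and 155 CPM in *ncs2*∆*elp6*∆*hel2*∆ and 452, 481 and 444 CPM in *ncs2*∆*elp6*∆ (−1.58 ± 0.082), and the mitochondrial dicarboxylate carrier DIC1 (−2.38).

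**Figure D3:**
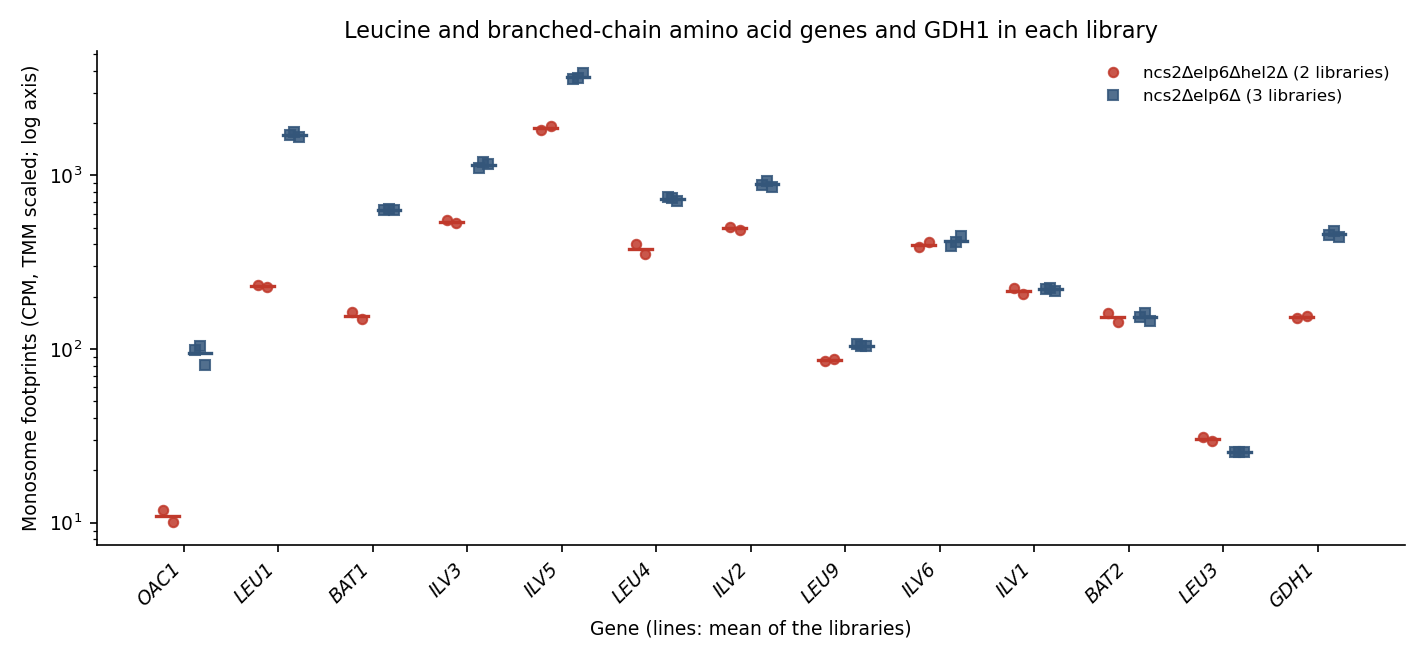
CPM (log axis) of genes of leucine and branched-chain amino acid synthesis in each monosome library, with the 2 *ncs2*∆*elp6*∆*hel2*∆ libraries left of the 3 *ncs2*∆*elp6*∆ libraries and a bar at each strain's mean. OAC1, LEU1 and BAT1 drop furthest, with log2 fold changes of −3.14, −2.89 and −2.03.

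Arginine synthesis went the opposite way from leucine synthesis, with 6 of 13 members called, each higher, and a median of 0.39. ARG1, argininosuccinate synthase, had 107 and 117 CPM in *ncs2*∆*elp6*∆*hel2*∆ and 55.6, 61.8 and 58.9 CPM in *ncs2*∆*elp6*∆ (log2 fold change 0.94 ± 0.093, edgeR adjusted p = 3.08e-06), and others that rose were ARG3 (0.86), ARG5,6 (0.60), ARG7 (0.47) and ARG4 (0.34). GCN4, the activator of amino acid synthesis genes, rose slightly, with 177 and 185 CPM in the triple deletion, against 139, 139.8 and 151 CPM in *ncs2*∆*elp6*∆ (0.34 ± 0.082). Of 15 genes for Gcn4 and its regulators 6 rose and 1 fell, among them the kinase gene GCN2 (0.41) and the collision-binding GCN1 (0.36), but 3 rose after removal of the trend with gene length, where GCN2 was at 0.14 (edgeR adjusted p = 0.369) and GCN1 changed sign to −0.066 (edgeR adjusted p = 0.561). The higher count was 2 without *ncs2*∆*elp6*∆*hel2*∆ replicate 1 and 1 without replicate 2.

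Nitrogen assimilation was lower, with 9 of 25 members lower and 1 higher (median −0.38). Arginine breakdown fell through arginase CAR1 (−0.91) and CAR2 (−0.88), the general amino acid permease GAP1 fell by 0.75, and its activator GAT1 fell by 0.84, all on the log2 scale, while GDH2, which releases ammonium from glutamate, was the member that rose (0.36). The lower count was 5 without *ncs2*∆*elp6*∆*hel2*∆ replicate 2. Histidine synthesis held 2 higher genes and no lower one by edgeR, and purine synthesis held 5 higher and 2 lower of 22, led by ADE17 (0.85), the last enzyme of the pathway.

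Glycolytic genes were lower. Of 29 genes of glycolysis and fermentation, 18 passed, each lower, with a median of −0.38, and the list took 10.8% and 10.7% of all counts in *ncs2*∆*elp6*∆*hel2*∆, against 12% to 12.3% in *ncs2*∆*elp6*∆. FBA1, aldolase, had 7724 and 7901 CPM in *ncs2*∆*elp6*∆*hel2*∆ and 12650.2, 12479 and 13525 CPM in *ncs2*∆*elp6*∆ (log2 fold change −0.72 ± 0.075, edgeR adjusted p = 5.03e-06). The pyruvate kinase gene CDC19 fell by 0.54, the phosphoglycerate mutase gene GPM1 fell by 0.46 and the alcohol dehydrogenase gene ADH1 fell by 0.46 on the log2 scale, whereas PDC1, pyruvate decarboxylase, did not pass (0.053, edgeR adjusted p = 0.641). ADH2, which oxidizes ethanol and is repressed by glucose, had a larger change, with 14.1 and 12.9 CPM in *ncs2*∆*elp6*∆*hel2*∆ and 43.3, 48.0 and 48.7 CPM in *ncs2*∆*elp6*∆ (−1.80 ± 0.14). Separate counts of ENO1 and ENO2, of the 3 TDH genes and of ADH1 and ADH2 are uncertain because of shared sequence. With plain library totals 14 glycolytic genes still passed as lower and 2 as higher.

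In the TCA cycle 10 of 22 genes fell and 1 rose (median −0.26), led by LSC2 (−0.56), the beta subunit of succinyl-CoA ligase, and malate dehydrogenase MDH1 (−0.51). The lower count was 6 without *ncs2*∆*elp6*∆*hel2*∆ replicate 2. Subunits of the respiratory chain and ATP synthase encoded in the nucleus held 3 higher (7.5%) and 6 lower (15%) of 40. The shares over all tested genes were 12% and 12.2%. Of the 8 proteins encoded in mitochondria none was called by edgeR or by DESeq2, nor had any an unadjusted p under 0.05. In gluconeogenesis and the glyoxylate cycle the genes that passed were higher. IDP2 (1.86), the gluconeogenic PCK1 (1.81) and the glyoxylate enzymes MLS1 (1.63) and ICL1 (1.29) were the 4 of 13 that passed. PCK1 had 10.2 and 6.77 CPM in *ncs2*∆*elp6*∆*hel2*∆ and 3.13, 1.84 and 1.55 CPM in *ncs2*∆*elp6*∆, so that its level was low in both strains. Of 13 alternatives that tested them, 8 kept the call of IDP2 and 6 that of MLS1. The number of higher genes in the list was 2 with DESeq2, after thinning, and without *ncs2*∆*elp6*∆ replicate 1, *ncs2*∆*elp6*∆*hel2*∆ replicate 1 or *ncs2*∆*elp6*∆*hel2*∆ replicate 2.

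Nutrient uptake genes changed in opposite directions for iron and phosphate. Of 30 genes of the iron regulon 7 rose and 1 fell (median 0.17). FRE1, the cell surface iron reductase, had 370.2 and 316 CPM in *ncs2*∆*elp6*∆*hel2*∆ and 202, 225 and 195 CPM in *ncs2*∆*elp6*∆ (log2 fold change 0.72 ± 0.089, edgeR adjusted p = 3.40e-05). The siderophore transporters SIT1 (0.57) and ARN1 (0.55) and the low-affinity iron transporter FET4 (0.43) rose as well, whereas the high-affinity oxidase FET3 (−0.0046, edgeR adjusted p = 0.978) did not pass and the iron-sulfur scaffold ISU2 fell (−0.99). The higher count was 2 without *ncs2*∆*elp6*∆*hel2*∆ replicate 1. In the phosphate regulon 9 of 22 genes fell and 2 rose (median −0.27), and 5 were lower without *ncs2*∆*elp6*∆*hel2*∆ replicate 2. The phosphate transporter PHO84 had 65.2 and 67.3 CPM in *ncs2*∆*elp6*∆*hel2*∆, against 177, 173 and 230.4 CPM in *ncs2*∆*elp6*∆ (−1.54 ± 0.13). Ergosterol synthesis held 8 of 26 called genes, each lower, and among cell wall mannoproteins 5 fell, with CWP2 (−1.03), CCW12 (−1.02) and CCW14 (−0.89) among them, and 2 rose.

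Of 134 cytosolic ribosomal protein genes tested, 40 were lower and 16 higher (median −0.15), but with plain library totals 16 were lower and 27 higher, and after removal of the trend with gene length 18 were lower and 23 higher, so that no direction held for this list across the scalings. Many of these genes are duplicated, and their separate counts are uncertain. Mitochondrial ribosomal proteins had 16 lower and 1 higher of 73, a count of 9 lower without either triple-deletion library and 10 with the length trend removed. In the proteasome 10 of 36 subunit genes were lower and 2 higher, against 3 lower and 4 higher with plain library totals. Without *ncs2*∆*elp6*∆*hel2*∆ replicate 1, 14 cytosolic ribosomal protein genes and 5 proteasome genes were lower, and without replicate 2, 10 cytosolic ribosomal protein genes were higher.

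Genes that act on collided ribosomes and unfinished chains were called in both directions with TMM scaling. Of 31 tested, 6 were higher and 4 lower (median 0.035), shares of 19.4% and 12.9% against 12% and 12.2% over all tested genes, and with plain library totals 12 were higher and 1 lower. SLH1, the helicase of the complex that splits ribosomes marked by Hel2, had 67.6 and 64.9 CPM in *ncs2*∆*elp6*∆*hel2*∆ and 42.1, 44.2 and 37.5 CPM in *ncs2*∆*elp6*∆ (log2 fold change 0.67 ± 0.10, edgeR adjusted p = 3.10e-04). SKI3 (0.60), of the complex that feeds mRNA to the exosome, RKR1 (0.54), the ubiquitin ligase of chains stuck on the large subunit, and SKI2 (0.26) were higher as well. CUE2 (0.31), the endonuclease that cuts mRNA at collisions, the partners of Slh1 CUE3 (0.29) and YKR023W (−0.12), DOM34 (0.035), RQC1 (0.025) and TAE2 (0.13) did not pass. CDC48, the segregase that extracts ubiquitylated chains, was lower (−0.34), with the ribosome-binding STM1 (−0.29) and RBG2 (−0.35). With the length trend removed, SLH1 (0.35), SKI3 (0.37) and RKR1 (0.29) still passed, and 3 of the list were higher and 3 lower. Without *ncs2*∆*elp6*∆*hel2*∆ replicate 1, 3 were higher and 1 lower. Among 24 genes that make or regulate the wobble modification, 3 (12.5%) were higher and 4 (16.7%) lower, near the shares over all tested genes. ELP2 (0.29) and ELP3 (0.27), the catalytic Elongator subunit, were higher, and the methyltransferase partner TRM112 was lower (−0.81). With the length trend removed ELP2 (0.19) and ELP3 (0.24) did not pass and 1 of the list was higher. Without *ncs2*∆*elp6*∆*hel2*∆ replicate 1, 1 was higher, and without replicate 2, 2 were lower.

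A trend with the length of the open reading frame ran through the whole comparison. The median log2 fold change was −0.16 in the 156 genes of at most 300 bp and 0.33 in the 157 genes over 4200 bp, with a steady order in the 6 classes between. Of the shortest class 8.97% were called higher and 25% lower, and of the longest class 51.6% were called higher and 3.82% lower. Both *ncs2*∆*elp6*∆*hel2*∆ libraries showed the trend, with medians relative to the *ncs2*∆*elp6*∆ mean of 0.41 and 0.28 in the longest class, where the *ncs2*∆*elp6*∆ libraries lay between −0.032 and 0.046. Spearman's rho between log2 fold change and length was 0.33 across 5290 genes, which share libraries and are not independent replicates. The same measure was 0.27 for *hel2*∆ against wild type and 0.32 for the disomes of *ncs2*∆*elp6*∆*hel2*∆ against *ncs2*∆*elp6*∆, but −0.022 for the difference between backgrounds. MDN1 and UTP20, a very long AAA protein and a long component of the small-subunit processome, rose by 0.67 and 0.55 in the comparison and were at 0.062 and 0.14 once a smooth trend with length was taken out, neither passing. With the trend removed 1020 genes passed, 480 higher and 540 lower, of which 870 were called in the same direction as before. HSP26, BTN2, SSA4 and LEU1 kept values of 2.93, 2.41, 1.80 and −2.99. Level mattered as well, since of the 1064 genes with the highest footprint counts 29.9% were lower and 13% higher. What set the trend was not tested.

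**Figure D4:**
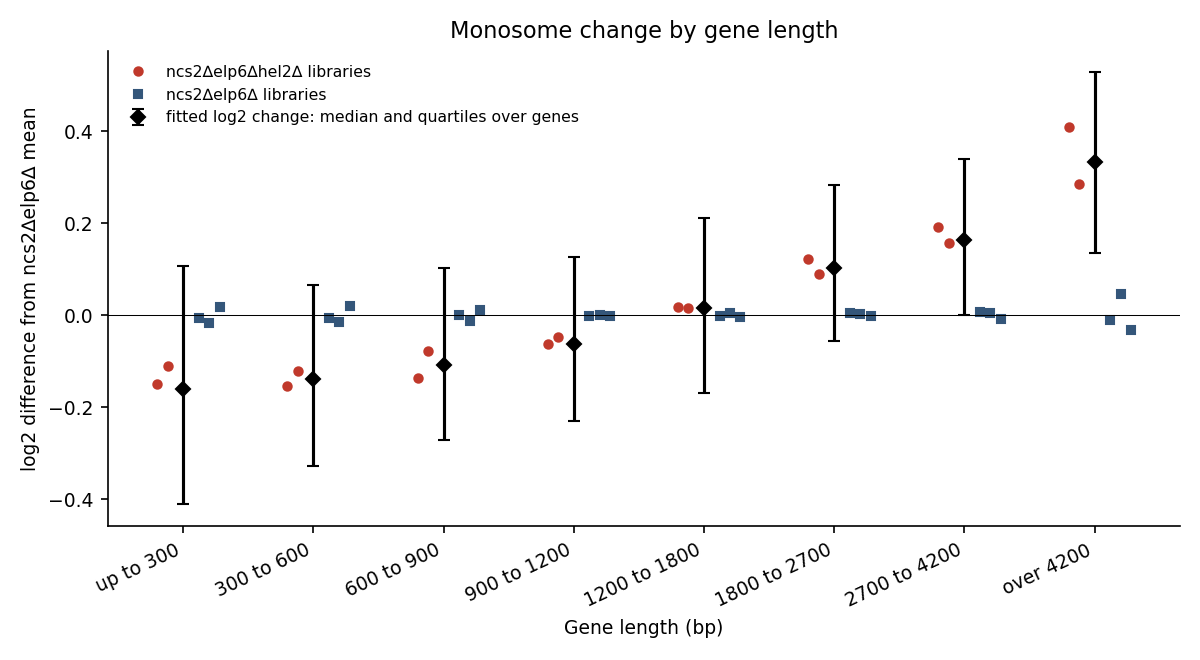
Median log2 fold change of *ncs2*∆*elp6*∆*hel2*∆ against *ncs2*∆*elp6*∆ monosome libraries by class of open reading frame length in bp, with quartiles over genes as error bars, beside the medians of each library relative to the *ncs2*∆*elp6*∆ mean. The median climbs to 0.33 in the class over 4200 bp, and both triple-deletion libraries climb while the *ncs2*∆*elp6*∆ libraries stay near 0.

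Whether losing Hel2 did something else here than in cells with intact wobble modification was tested as the difference between the change of *ncs2*∆*elp6*∆*hel2*∆ against *ncs2*∆*elp6*∆ and the change of *hel2*∆ against wild type, in 1 edgeR fit over 10 monosome libraries. The *hel2*∆ strain carried the same LEU2 disruption. The 2 backgrounds also differed in MET17, which had 517 and 894 counts in *ncs2*∆*elp6*∆*hel2*∆ and 2953 to 5967 in *ncs2*∆*elp6*∆, but 1 in each *hel2*∆ library and at most 24 in wild type (the labels give *met15*∆0, the same gene, for wild type alone), and that difference cannot be told apart from the background. Of 5354 genes tested, 283 (5.29%) differed, 160 (2.99%) with a positive difference and 123 (2.3%) with a negative one. A positive difference can also come from a decrease in *hel2*∆ against wild type. This count ranged from 46 without *hel2*∆ replicate 2 to 691 without wild-type replicate 3, and was 91 without *hel2*∆ replicate 1 and 99 without *ncs2*∆*elp6*∆*hel2*∆ replicate 2.

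Of the inducible chaperones named above, HSP26, BTN2, SSA4 and SSE2 differed between the backgrounds, whereas SSA3 and HSP42 did not pass. BTN2 changed by 2.39 on the log2 scale without wobble modification and by −0.12 in *hel2*∆ against wild type, a difference of 2.5 ± 0.16 (edgeR adjusted p = 6.15e-09). For SSA4 the changes were 1.85 and −0.049 (difference 1.90 ± 0.21, edgeR adjusted p = 1.26e-04), and for SSE2 they were 1.70 and 0.26 (difference 1.44 ± 0.18). These 3 genes, with FES1 (difference 0.88) and YJL144W (2.60), passed under all 16 alternatives. HSP26 changed by 2.82 and 0.018 (difference 2.80, edgeR adjusted p = 0.00929), but did not pass without *hel2*∆ replicate 1, *hel2*∆ replicate 2 or *ncs2*∆*elp6*∆*hel2*∆ replicate 2. SSA3 had 2.01 and 0.71, of which only the change in the *ncs2*∆*elp6*∆ background passed, and its difference of 1.3 did not pass (edgeR adjusted p = 0.0683). Of the 12 Hsp70 and Hsp110 genes 4 differed, each with a positive difference.

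The large decreases of LEU1 and OAC1 came in both backgrounds. LEU1 changed by −2.90 without wobble modification and by −2.95 with it (difference 0.049 ± 0.11, edgeR adjusted p = 0.833), and OAC1 by −3.15 and −3.47 (difference 0.33 ± 0.26, edgeR adjusted p = 0.495). Of the 12 genes of the list 3 differed between backgrounds, each more negative in the *ncs2*∆*elp6*∆ background. These were LEU4, BAT1 (difference −0.48) and ILV2 (−0.46). The median of the list was −0.90 in the fit of *ncs2*∆*elp6*∆*hel2*∆ and *ncs2*∆*elp6*∆ alone, and −0.26 in *hel2*∆ against wild type. The median of the differences taken gene by gene was smaller, −0.18, so the gap between those medians does not describe a typical gene of the list. LEU4 had −0.97 in the *ncs2*∆*elp6*∆ background and −0.12 in the other (difference −0.85 ± 0.11, edgeR adjusted p = 8.25e-05, passing in all 16 alternatives). For GCN4 the change was smaller here, 0.33 against 1.13 in *hel2*∆ over wild type (difference −0.79), and this passed in 15 of 16 alternatives.

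Iron uptake held many genes that differed, with 15 of 30 genes called, each with a positive difference, against 2.99% of all tested genes. ARN1 changed by 0.55 and −1.62 (difference 2.17 ± 0.19, edgeR adjusted p = 5.26e-07), and SIT1 by 0.56 and −0.92 (difference 1.48 ± 0.14), so that in both genes most of the difference came from a decrease in *hel2*∆ against wild type. FRE1 (0.90) and FET4 (1.02) differed too, as did HXT1 (1.44), a low-affinity glucose transporter, and ARN1, SIT1, FRE1, FET4 and HXT1 each passed in all 16 alternatives.

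**Figure D5:**
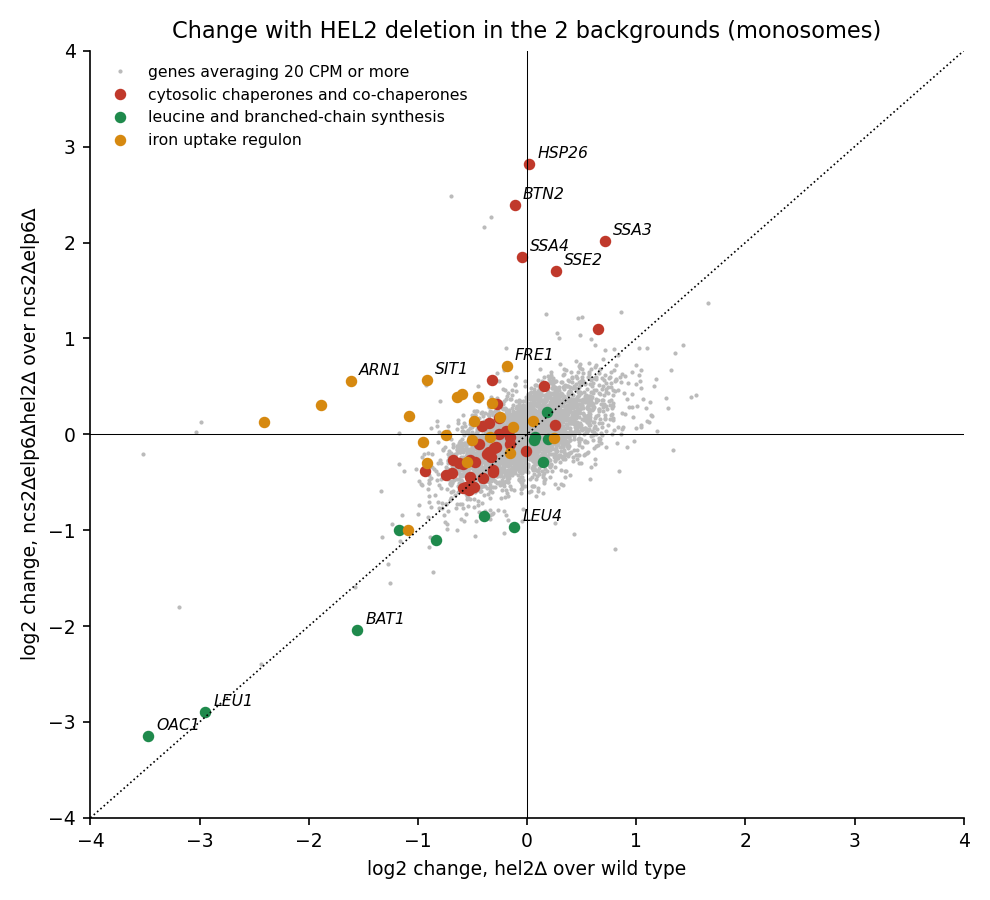
Log2 fold change of *ncs2*∆*elp6*∆*hel2*∆ against *ncs2*∆*elp6*∆ (vertical axis) and of *hel2*∆ against wild type (horizontal axis) for genes of at least 20 CPM, from 1 fit over 10 monosome libraries, with the line of equal change (HEL2 lies outside the axes). BTN2, HSP26, SSA4 and SSE2 sit high above the line near 0 on the horizontal axis, and LEU1 and OAC1 sit low on both axes.

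The same strains were also sequenced as disomes, in 2 libraries each, with 1180289 and 1229492 counts in *ncs2*∆*elp6*∆*hel2*∆ and 845707 and 1121126 in *ncs2*∆*elp6*∆. Of 4342 genes tested, 1142 (26.3%) passed, 547 (12.6%) higher and 595 (13.7%) lower in the triple deletion. The count was 719 without *ncs2*∆*elp6*∆ disome replicate 1 and 609 without replicate 2. Among the 1210 genes called in monosomes and tested in disomes, 333 were called in the same direction and 116 in the opposite one. In the leucine list 6 of 12 members were lower in disomes and 3 were higher (median −0.23), where monosomes had 8 lower and none higher. LEU1 was at 367 and 374 CPM in *ncs2*∆*elp6*∆*hel2*∆ and 3430.3 and 3525 CPM in *ncs2*∆*elp6*∆ (log2 fold change −3.23, edgeR adjusted p = 4.31e-19), and OAC1 had a log2 fold change of −3.30 (edgeR adjusted p = 4.18e-07). The higher members were ILV1 (1.3), ILV6 (0.81) and BAT2 (0.86). ARG1 rose by 2.01 (edgeR adjusted p = 1.63e-09).

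Chaperones were less uniform between the readouts. SSA3 (1.59), HSP26 (0.76), SSA4 (0.47) and YJL144W (3.05) were called higher in disomes. BTN2 had 74.1 and 90.4 disome CPM in *ncs2*∆*elp6*∆*hel2*∆ and 59.6 and 87.1 in *ncs2*∆*elp6*∆ (log2 fold change 0.14, edgeR adjusted p = 0.654), and SSE2 (0.11), HSP42 (−0.14) and HSP30 (−0.12) did not pass either. HSP104 (−0.57) and HSP82 (−0.40) were called lower in disomes, although neither passed in monosomes. Of 28 general stress genes tested in disomes 1 was higher and 19 lower, where the monosomes had 9 higher and 1 lower of 30, and of 38 respiratory chain genes 1 was higher and 33 lower. PHO84 had the opposite sign in the 2 readouts, with 1.05 in disomes (edgeR adjusted p = 2.65e-07), as did VMA7 (−0.96). Whether the disome and monosome changes of a gene differ from each other was not tested.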

How the data were processed

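Monosome footprints of *ncs2*∆*elp6*∆*hel2*∆ (n = 2) and *ncs2*∆*elp6*∆ (n = 3) were compared. The authors deposited unnormalized footprint counts for each open reading frame, with 6085 genes in the monosome table and 5767 in the disome table. Before deposition the authors trimmed adapters, removed noncoding RNA with STAR 2.5.3a and counted uniquely mapped sense reads with 1 mismatch allowed (Bowtie 1.2.3), with sacCer3 named as the build in the submitters' processing notes. Unique mapping dropped reads shared by near-identical paralogues. Removal of PCR duplicates is not given in the sources used here, so counting intervals cover counting error only. Groups came from the sample titles. The study describes the replicates as biological, and the labels give only a number for each, so p-values measure the spread between these libraries. Within each strain, libraries differed by more than sampling noise (chi-square per degree of freedom 3.52 for *ncs2*∆*elp6*∆*hel2*∆ and 8.16 to 15.0 for *ncs2*∆*elp6*∆).

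Counts were tested with edgeR 4.0.16 in R 4.3.3 (quasi-likelihood F test, robust fit, TMM, filterByExpr, no covariate) on the strains compared, with Benjamini-Hochberg adjustment over all genes tested and a threshold of 0.05. The difference between backgrounds was a contrast in a fit over all 10 monosome libraries. The method was tested on simulated data. Levels are CPM on TMM-scaled totals, and errors are standard errors. The alternatives were DESeq2 1.42.0, upper-quartile scaling, no filter, a non-robust fit, a replicate block, thinning, each library left out, all 4 strains in 1 fit, removal of a loess trend with gene length and plain library totals. Where leaving out a library left a strain with a single library, lower counts may come from lost replication. Gene lengths came from the RefSeq table of R64 and were found for 5290 of the 5318 tested genes.

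Gene lists (44, with 1116 of 1131 entries matched) were written from general knowledge. The members and lists were chosen with earlier results of these data known. Lists were described by counts and medians, with no set test. Named were the deleted and marker genes and GCN4, the 12 called genes of largest change in each direction with at least 20 CPM and no overlap between strains, up to 4 called members of largest change per list and direction, and all members of the Hsp70, Hsp90, Hsp104 and leucine lists. HSP12, TPS1, HSF1, PDC1, FET3, CDC19, GPM1, ADH1, ARG4, SKI2, CUE2, CUE3, YKR023W, DOM34, RQC1, TAE2, and MFA1 were named after their values were seen. Promoter and protein sequences were not analysed here.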

Additional observations from a re-analysis of the deposited data

Results flagged for a closer look

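For 34 of the genes named, the effect of deleting HEL2 differed between the backgrounds without and with wobble modification, by the test of the difference itself in 1 edgeR fit over 10 monosome libraries. Each value below is that difference on the log2 scale, the change of *ncs2*∆*elp6*∆*hel2*∆ against *ncs2*∆*elp6*∆ minus the change of *hel2*∆ against wild type. The causes were not tested.

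Among chaperones the differences were 2.80 for HSP26, 2.5 for BTN2, 1.90 for SSA4, 1.44 for SSE2, 0.88 for FES1 and 0.59 for SWA2, all of which rose with Hel2 lost in the *ncs2*∆*elp6*∆ background. Positive differences of 0.55 for ZUO1, 0.42 for STI1, 0.47 for HSC82 and 0.49 for HSP82 went with decreases in *hel2*∆ against wild type, of −0.93, −0.68, −0.35 and −0.41. The stress genes HSP30 (3.18), YJL144W (2.60), SRX1 (2.56) and TSA2 (1.64) had positive differences, and so did VMA7 (0.73). TPS2 (−0.54) and PRX1 (−0.63) had negative ones. Over the 30 genes of the general stress list the median difference was −0.37, with 2 called above 0 and 4 below. The shares over all tested genes were 2.99% above 0 and 2.3% below. The median of that list in *hel2*∆ against wild type was 0.69.

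Among the named genes of amino acid and purine metabolism that differed, those other than LEU2 had negative values. These were −0.85 for LEU4, −0.48 for BAT1, −0.46 for ILV2, −0.79 for GCN4, −0.50 for ARG1, −0.54 for CAR2 and −0.52 for ADE17. The lists did not all go this way, since 4 amino acid permease genes were called above 0 and none below. The purine list had a median difference of −0.042. GCN4, ARG1 and ADE17 were higher without Hel2 in both backgrounds, by 0.33, 0.93 and 0.84 without wobble modification and by 1.13, 1.43 and 1.36 with it. LEU2 had a difference of 3.11, with 59 and 102 counts in *ncs2*∆*elp6*∆*hel2*∆, 1 in each *ncs2*∆*elp6*∆ library, 22 and 25 in *hel2*∆ and 1 to 4 in wild type, and none of 16 alternatives kept that call.

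The transporters ARN1 (2.17), SIT1 (1.48), FET4 (1.02) and HXT1 (1.44) and the reductase FRE1 (0.90) had changes of opposite sign in the 2 backgrounds. CWP2 (−1.46), CCW14 (−0.71) and YDR524C-B (−0.58), genes of the cell surface or of unknown role, and LSC2 (−0.84) had negative differences. Of these calls, those of BTN2, SSA4, SSE2, FES1, YJL144W, LEU4, ARN1, SIT1, FRE1, FET4, HXT1 and LSC2 held in all 16 alternatives.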

How the results depend on the processing

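Among the named genes called in the monosome comparison, the sign of the change held under all 14 alternatives except for GCN1, whose change turned to −0.066 with the trend with gene length removed. The number of genes called in the monosome comparison, 1290, ranged from 647 to 1314 when each library was left out in turn, with 300 to 654 higher and 347 to 660 lower. It was 1077 with DESeq2, 1030 after thinning to the smallest library and 1285 with upper-quartile normalization, and 1061, 941 and 1209 genes were shared with the same direction. With plain library totals 1577 genes were called, of which 1232 were higher and 345 lower. Removal of the length trend and plain totals were chosen after seeing the data. Fits that left a strain with a single library, here and in the counts below, lose replication, so their lower counts cannot show dependence on that library.

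The count for the difference between backgrounds, 283, ranged from 46 to 691 with a library left out, with 28 to 407 above 0 and 18 to 284 below. Negative differences, 123 in all, numbered 79 without wild-type replicate 2, 70 without *ncs2*∆*elp6*∆*hel2*∆ replicate 1 and 35 without its replicate 2. The disome count, 1142, was 581 with DESeq2 (253 higher and 328 lower) and ranged from 609 to 1308 with a library left out, with 273 to 619 higher and 336 to 689 lower.

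Replicate numbers were not treated as pairs, and the labels do not say whether they pair the samples. For replicates 1 and 2, deviations of same-numbered *ncs2*∆*elp6*∆*hel2*∆ and *ncs2*∆*elp6*∆ libraries correlated at −0.0083 in monosomes and 0.019 in disomes. These values show little shared signal, and cannot show how cultures or preparations were arranged. With the replicate block, 998 monosome genes, 287 background differences and 1104 disome genes were called. Depth limits the comparison through the 2 shallow *ncs2*∆*elp6*∆*hel2*∆ libraries, where 3 counts equal 1.18 and 0.655 CPM.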

Other observations

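Genes of mating type a were partly higher in *ncs2*∆*elp6*∆*hel2*∆, with 4 of 9 called higher and 1 lower by edgeR. STE6, the exporter of a-factor, had 197 and 195 CPM in *ncs2*∆*elp6*∆*hel2*∆ and 123, 133 and 111 CPM in *ncs2*∆*elp6*∆ (log2 fold change 0.68 ± 0.089), AXL1 (0.77), a protease of a-factor processing, and STE2 (0.28), the receptor of alpha-factor, were higher, and ASG7 was lower (−1.15). The a-factor gene MFA1 did not pass (0.11, edgeR adjusted p = 0.438). In threonine, serine and glycine synthesis 5 of 11 genes passed, each lower, and without *ncs2*∆*elp6*∆*hel2*∆ replicate 2 the number was 3. Of 21 cytosolic aminoacyl-tRNA synthetases 7 were lower and 2 higher, against 2 lower and 5 higher with plain library totals, so that no direction held across scalings.

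Outside every list, ALD5, a mitochondrial aldehyde dehydrogenase, had 217 and 223 CPM in *ncs2*∆*elp6*∆*hel2*∆ and 537, 595 and 549.8 CPM in *ncs2*∆*elp6*∆ (−1.35 ± 0.081). The drug exporter PDR15 (−1.18), the mitochondrial membrane protein FSF1 (−1.07) and YDR524C-B (−1.44) were also among the 12 largest decreases at a mean of 20 CPM or more, the deleted genes left out.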
